A study of Mus musculus with 10 samples.

Results

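The molecular clock of the left ventricle was followed here through 10 genes: Arntl, Clock and Npas2, Per1, Per2 and Per3, Nr1d1 and Nr1d2, and Dbp and Tef. Members were the probes whose symbol is 1 of these 10, which gave 12 of the 26423 probes and 10 of the 19942 gene symbols in the table. The hearts came from C57BL/6J male mice, operated at 8 weeks of age and 20 to 25 g, which had either transverse aortic banding (TAB, a constriction of the aorta that raises the pressure load on the left ventricle) or a sham operation. Left ventricle RNA was collected at 5 times after the operation (days 3, 5, 7, 14 and 28), with 1 sample for each operation and day, so 5 TAB and 5 sham samples were compared. The number of mice behind a sample is not given in the sources used here, and neither is the clock time at which tissue was collected. For the TAB sample of day 14, 1 label field names another day than the title, and the title was followed. With 1 sample per operation and day, the 5 days served as replicates of a mean TAB effect, and a p-value then measures the spread between days.

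The mammalian clock is a feedback loop of transcription. Arntl (also called Bmal1) pairs with Clock or its paralog Npas2 and switches on genes that carry an E-box, among them the period genes Per1, Per2 and Per3, whose products return to repress that pair, and Nr1d1 and Nr1d2, which encode the nuclear receptors REV-ERB alpha and beta that repress Arntl. Dbp and Tef are PAR bZIP factors, activators of genes that carry a D-box, and serve as outputs of the loop. In the heart, as in other tissues, Arntl and Dbp peak at opposite times of day, and the clock sets the daily course of genes for metabolism and repolarization.

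Promoter sequence is shown for the members whose upstream stretch holds an E-box or a D-box, the sites through which the loop acts on itself. RefSeq promoters (GRCm38.p6, 250 bases before to 50 after a start site) were matched by symbol for 9 of the 10 members, 14 promoters in all, and Per2 had none in the table. An E-box, searched as CACGTG, which reads alike on both strands, was present in a promoter of 2 members, Per1 and Tef. A D-box, searched on both strands as TTATGTAA and TTACGTAA, was present in the promoter of 1 member, Per3, which held 2 copies. Of all 32817 promoters in the table, 7.15% held that E-box and 1.05% held either D-box. Capitals mark the matched letters.
Per1, chr11:69098763-69098808, plus strand: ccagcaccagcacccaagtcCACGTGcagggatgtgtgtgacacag
Per3, chr4:151044796-151044890, minus strand: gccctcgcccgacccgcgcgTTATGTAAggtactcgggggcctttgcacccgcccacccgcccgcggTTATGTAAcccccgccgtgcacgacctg
Tef, first promoter, chr15:81802526-81802571, plus strand: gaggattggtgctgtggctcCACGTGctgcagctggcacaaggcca
Tef, second promoter, chr15:81811256-81811301, plus strand: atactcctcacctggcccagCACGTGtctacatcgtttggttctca
A match describes these letters only, and the windows of the other members, Dbp and Nr1d1 among them, held neither site. The half-site AGGTCA, to which REV-ERB receptors bind within a longer element, was found on either strand in 16.3% of all promoters. Among the members it was found in 1 promoter each of Arntl, Clock, Per1 and Nr1d2, and the other promoters of Arntl, Clock and Per1 did not hold it.

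Each array gave a raw intensity, a detection p-value and a spot flag per probe. The median raw intensity ran from 34 to 55 over the TAB arrays and from 42 to 57 over the sham arrays, and the day 3 TAB array, at 34, was the dimmest. The share of spots flagged as not found ran from 40.81% to 47.32% over the TAB arrays and from 40.25% to 45.45% over the sham arrays. After median scaling, removal of probes below 1 on any array and quantile normalization, 16113 genes were kept, and all 10 members were among them. The probe used for each of 9 members was found on all 10 arrays. Npas2 was the exception, with its probe found on 2 TAB and 4 sham arrays, so that its values lie near background. The detection p-value was stricter than the spot flag. Its limit of 0.05 was reached at a log2 level of 8.11 to 8.62 on 8 arrays but at 6.62 and 6.70 on the sham arrays of days 7 and 28, where 10180 and 10009 of 19976 probes were under it, against 4945 to 6191 on the others. A probe with a detection p-value of 0.05 or more is called not detected below. Where only the dimmer sample of a day was not detected, the fold is given as at least the brighter level over the lowest detected level of the dimmer array (or over the probe's own level where that is higher), a bound added after the data were seen, and where the brighter sample was not detected no fold is given. Detection of the members ranged from 5 of 5 TAB and 5 of 5 sham arrays for Per1 to 0 of both for Npas2. Levels below are log2 normalized intensities of a gene's probe, and they are compared between samples, not between genes. The tissue label held: all 9 cardiomyocyte markers were found on every array, among them Myh6 at 15.45 in sham and 15.30 in TAB samples, while none of the 3 lung markers was found on all arrays (Sftpc on 7 of 10, the others on 0). Of 2 skeletal muscle markers, Actn3 was found on 0 arrays and Tnnt3 on all 10, at 6.22 in sham and 6.44 in TAB samples.

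By their clock genes the samples stood at unlike places on an axis from high Arntl to high Dbp, read here as phase. Samples of both operations were found towards both ends. Arntl, the activator of the loop, stood in the sham samples at 9.87, 5.66, 6.23, 9.99 and 5.36, taking days 3, 5, 7, 14 and 28 in turn, the order kept for all such values below. In the TAB samples it stood at 9.76, 6.88, 7.32, 8.30 and 5.60. Arntl was thus high in both samples of day 3 and in the sham sample of day 14, low in both samples of day 28 and in the sham samples of days 5 and 7, and between these in the TAB samples of days 5, 7 and 14. Its highest sample, the day 14 sham, was at least 10.3-fold above the day 7 sham sample. Near the low end its probe was close to background, with a detection p-value over 0.5 on 4 arrays, and it was detected on 1 TAB and 2 sham arrays. The order of its low samples is therefore uncertain.

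Dbp, the PAR bZIP output that peaks opposite to Arntl, gave the mirror image. Its sham samples read 8.02, 11.50, 12.52, 8.59 and 12.36, and its TAB samples 8.08, 11.49, 11.54, 11.33 and 12.18. The 3 samples with the highest Arntl were the 3 with the lowest Dbp, and the range over all samples was at least 16.2-fold, with Dbp detected on 4 arrays of each operation. A phase index was set for each sample as the mean of its centred Dbp level and its centred Arntl level with the sign turned, so that a negative index means high Arntl and low Dbp. This single axis cannot tell rising from falling levels, nor a phase in between from a smaller amplitude. Phase below means a place on this axis. The index was -2.56 in the day 3 sham, -2.47 in the day 3 TAB and -2.33 in the day 14 sham sample. It then rose through the TAB samples of day 14 (-0.12), day 7 (0.48) and day 5 (0.67) to the sham samples of day 5 (1.29) and day 7 (1.51), the day 28 TAB sample (1.66) and the day 28 sham sample (1.87). The 10 samples thus formed a group of 3 at the Arntl-high end, with a gap of 2.21 before the next sample, and because of these clusters no correlation over samples is given.

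**Figure D1:**
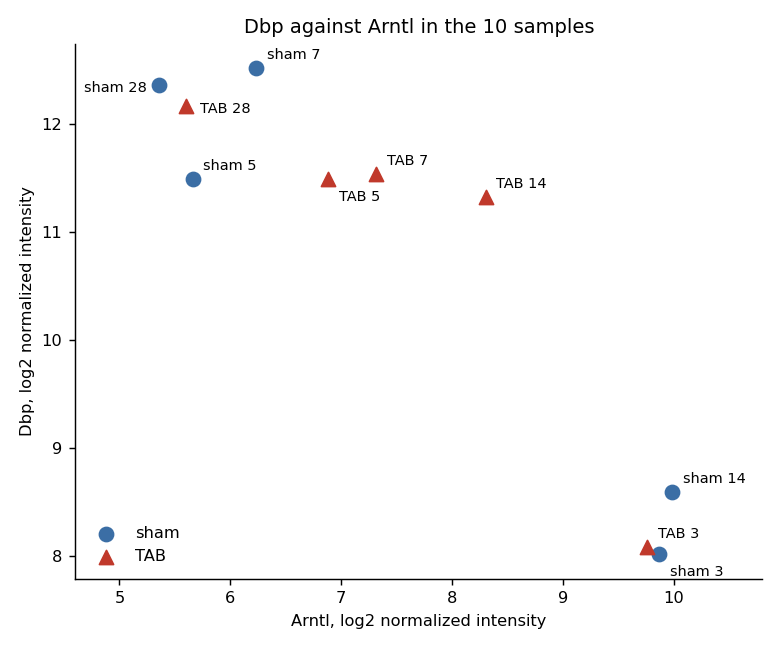
Dbp (vertical axis) against Arntl (horizontal axis), both as log2 normalized intensity, in the 10 samples, each labelled with its operation and day (circles sham, triangles TAB). The 2 samples of day 3 and the day 14 sham sample sit at the lower right, with Arntl between 9.76 and 9.99, and the other 7 have Dbp above 11.

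The index did not run in the order of the days, and no difference in its mean was detected between TAB and sham samples. The mean index was 0.04 ± 1.54 (SD, n = 5) in TAB and -0.04 ± 2.20 (SD, n = 5) in sham samples, a difference of 0.09 (two-sided exact permutation test over samples, p = 0.952, smallest possible 0.00794). Paired by day, a two-sided exact sign-flip test gave p = 0.938, in a design whose smallest p is 0.0625. Taken day by day in the same order, TAB minus sham was 0.09, -0.61, -1.03, 2.21 and -0.21. The index was alike in both samples of day 3 and in both of day 28, but on day 3 Dbp was not detected in either sample and on day 28 Arntl was not, so that a close match in phase is not shown. On day 14 the sham heart was at the Arntl-high end and the TAB heart was not. The mean difference in the index turned negative, to -0.44, when day 14 was left out (exact permutation p = 0.6). With 1 sample each, animal, time of collection and operation cannot be told apart on day 14.

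**Figure D2:**
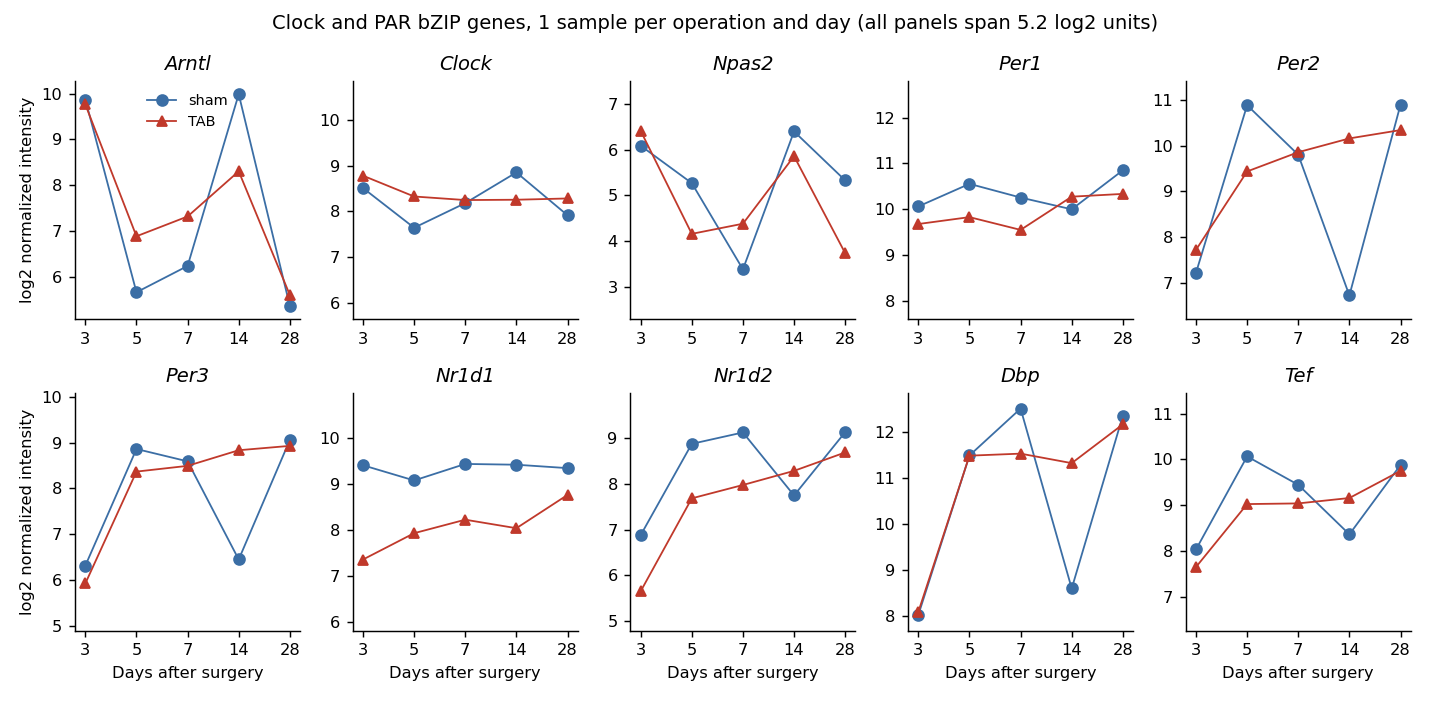
Log2 normalized intensity (vertical axes, all panels spanning the same range) of each of the 10 genes by day after surgery (horizontal axes, days evenly spaced), with circles for sham and triangles for TAB, 1 sample per point. The sham line dips on day 14 for Per2, Per3 (its steeper probe), Dbp and Tef and peaks there for Arntl, and Nr1d1 is lower in TAB on all 5 days.

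The partners of Arntl moved with it in part. Clock, the usual partner, read 8.51, 7.64, 8.18, 8.85 and 7.92 over the sham days and 8.78, 8.33, 8.25, 8.26 and 8.28 over the TAB days. It was highest in the 3 Arntl-high samples, but its levels spanned only 2.31-fold as measured, and it was detected on 3 TAB and 4 sham arrays. Npas2, the paralog that can replace Clock, read 6.09, 5.27, 3.39, 6.40 and 5.33 in sham and 6.41, 4.16, 4.38, 5.86 and 3.74 in TAB samples. The 3 Arntl-high samples were also the highest for Npas2, although its detection p-value was over 0.5 on all 10 arrays. Neither gene was called between TAB and sham: the log2 difference was 0.16 ± 0.19 (SE) for Clock (adjusted p = 0.603 from limma) and -0.38 ± 0.39 (SE) for Npas2 (adjusted p = 0.522 from limma).

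Per2 and, by 1 of its 2 probes, Per3, repressors of the loop, had their low samples where Dbp did. Per2 read 7.22, 10.88, 9.80, 6.73 and 10.89 over the sham days and 7.72, 9.43, 9.85, 10.15 and 10.34 over the TAB days. Per3, whose promoter holds both D-boxes shown above, read 6.31, 8.86, 8.59, 6.45 and 9.06 in sham and 5.92, 8.37, 8.49, 8.83 and 8.93 in TAB samples by the probe used. For both genes the 3 Arntl-high samples were the 3 lowest, and these were not detected, while both were detected on the other 4 TAB and 3 sham arrays. A second, brighter Per3 probe, detected on all 10 arrays, did not show this. It read 10.27, 10.02, 10.20, 10.30 and 10.41 in sham and 9.74, 9.88, 9.91, 10.01 and 10.06 in TAB samples. By that probe TAB was lower on 5 of 5 days, with log2 ratios from -0.54 to -0.14, and the groups overlapped. Values for Per3 therefore depend on the probe, and those below are from the steeper probe unless the brighter one is named. Per1, which also answers to stimuli outside the clock, ran from 9.55 to 10.85, at 10.06, 10.55, 10.25, 9.997 and 10.85 in sham and 9.68, 9.83, 9.55, 10.27 and 10.33 in TAB samples.

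Tef, the other PAR bZIP factor, read 8.03, 10.06, 9.44, 8.36 and 9.88 in sham and 7.65, 9.02, 9.04, 9.16 and 9.75 in TAB samples, again with the 3 Arntl-high samples lowest and not detected, and the other 4 TAB and 3 sham samples detected. Of the other members, those nearest to the course of Dbp over the 10 samples, by the root mean square difference of centred log2 levels, were Per3 (0.64), Per2 (0.69), Nr1d2 (0.97) and Tef (1.06). Over the sham samples alone, the SD was 2.31 for Arntl, 2.14 for Dbp and 2.002 for Per2 as measured, and 1.64, 1.998 and 1.21 with values not detected raised to the lowest detected level of their array. The order of these genes by spread thus depends on values near background. The SD of Per3 fell in the same way from 1.36 to 0.26, that of Nr1d2 from 1.0005 to 0.33 and that of Tef from 0.91 to 0.76, while Per1, detected on all arrays, stayed at 0.36. The median SD over the 10535 genes whose probe was found on all arrays was 0.19 as measured.

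Nr1d1, which encodes REV-ERB alpha, stood apart from this pattern. Over the sham samples it was flat, at 9.41, 9.08, 9.44, 9.42 and 9.35, an SD of 0.15 that ranked 6939 of the 10535 genes. The TAB samples read 7.35, 7.93, 8.22, 8.04 and 8.76. All 5 TAB samples lay below all 5 sham samples, a split that 7.76% of all genes showed in this direction, and TAB was lower on 5 of 5 days, as it was for 17.5% of all genes. By the probes used, no other member had groups that did not overlap or the same sign on all days, while the brighter Per3 probe was lower in TAB on all 5. Detection p-values for Nr1d1 were between 1.1e-05 and 0.00282 on the sham arrays and between 0.00839 and 0.951 on the TAB arrays, of which 1 of 5 was under 0.05, although the spot was found on all 10. On days 3, 5, 7 and 14 TAB was thus lower by a bound alone, at least 1.73-fold, 1.96-fold, 1.97-fold and 2.06-fold.

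The mean TAB effect was tested for all genes with limma, with day as a block. Nr1d1 was 2.43-fold lower in TAB, a log2 difference of -1.28 ± 0.21 (SE, n = 5 days, adjusted p = 0.0217 from limma). It was the only member called, 1 of 10 lower and 0 of 10 higher, where 7.87% of all genes were called lower and 9.19% higher, so the members' share lay near the background. With its TAB values that were not detected raised to the lowest detected level of their array, Nr1d1 stood at -0.87 (adjusted p = 0.0153 from limma), at least 1.83-fold lower, and raised values carry no spread of their own. Over all genes called, 53.9% were higher in TAB, a share that became 66.3% with quantile normalization within each operation, as the study did it by condition, and 67.6% with median scaling alone. Under the first of these Nr1d1 stood at -1.19 (adjusted p = 0.0231 from limma). At an unadjusted p under 0.05 the count was also 1 of 10, where 35.7% of all genes were under it. The median over the members was -0.04 and that over all 16113 genes -0.03. The Nr1d1 call was lost when day 3, 5, 7 or 14 was left out (log2 differences of -1.08, -1.32, -1.30 and -1.27, with adjusted p of 0.0716, 0.0726, 0.0822 and 0.056 from limma) and held without day 28 (-1.45, adjusted p = 0.0184). Over the whole table the number of genes called fell at the same time, from 2749 to between 22 and 835, and Nr1d1 kept an unadjusted p under 0.05 without any 1 of the 5 days.

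The phase index was then added to the fit, to adjust the difference between operations for it. With day as a block, this adjustment rests on index differences between the 2 samples of a day. The largest was that of day 14 (2.21), followed by day 7 (-1.03), so the day 14 pair weighs most in it. Nr1d1 again was the only member called, at -1.27 ± 0.23 (SE, adjusted p = 0.0372 from limma), with 0 of 10 members higher. Over all genes 5.65% were then called lower and 7.38% higher. Its slope on the index was -0.09 ± 0.20 (SE) log2 units per unit of the index, against 1.32 ± 0.29 for Per2, 0.88 ± 0.19 for Per3, 0.53 ± 0.15 for Nr1d2, 0.46 ± 0.14 for Tef and 0.32 ± 0.09 for Per1. Clock sloped the other way, at -0.30 ± 0.13. A single slope was fitted for both operations. Nr1d1 was flat over the sham samples, but its TAB values ran from 7.35 at an index of -2.47 (day 3, not detected) to 8.76 at 1.66 (day 28). Whether its slope differed between operations was not tested. These slopes describe the fit and were not tested, and Arntl and Dbp, which make up the index, were each fitted on the other alone. With probes below 1 kept and set to 1, no member passed, 3 had an unadjusted p under 0.05, and Nr1d1 stood at -1.27 (adjusted p = 0.0806 from limma). Leaving out days 3, 5, 7 and 14 gave log2 differences of -1.07, -1.30, -1.26 and -1.46 for Nr1d1 in the fit with phase. The adjusted p was 0.122, 0.131, 0.146 and 0.333 from limma, in fits that called 0 of all genes. Leaving out day 28 gave -1.45 (adjusted p = 0.031 from limma).

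Nr1d2, the REV-ERB beta gene, moved with the phase, and its TAB values lay below sham on most days. It read 6.88, 8.87, 9.12, 7.75 and 9.13 in sham and 5.65, 7.68, 7.97, 8.28 and 8.69 in TAB samples, lower in TAB on 4 of 5 days. It was detected on 1 TAB and 3 sham arrays and on both arrays of a day only once, and by the bound it was lower in TAB by at least 1.70-fold on day 5 and 1.58-fold on day 7. The day that went against this was day 14, when Nr1d2 was detected in neither sample and the sham sample was at the Arntl-high end. The log2 difference was -0.69 ± 0.29 (SE, adjusted p = 0.143 from limma) without the phase index and -0.74 ± 0.17 (SE, adjusted p = 0.0513 from limma) with it, so neither passed the test. With the index widened from Dbp and Arntl to all members but Nr1d1 and the gene fitted, it passed (-0.74, adjusted p = 0.0386 from limma). Without day 14, it passed in the fit that had day alone (-1.005, adjusted p = 0.0496 from limma).

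Per1 showed the same signs at a smaller size. It was lower in TAB on 4 of 5 days, with log2 ratios of -0.38, -0.73, -0.71 and -0.52, and higher on day 14 (0.28). The log2 difference was -0.41 ± 0.17 (SE, adjusted p = 0.148 from limma), and with the phase index -0.44 ± 0.10 (SE, adjusted p = 0.0511 from limma), which did not pass. At an unadjusted p under 0.05, 3 of 10 members were reached in the fit with phase, namely Nr1d1, Nr1d2 and Per1, where 35.6% of all genes were under it. In 5 of the 15 alternative settings of that fit all 3 genes passed the adjusted threshold, where from 13.3% to 36.6% of all genes were called.

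**Figure D3:**
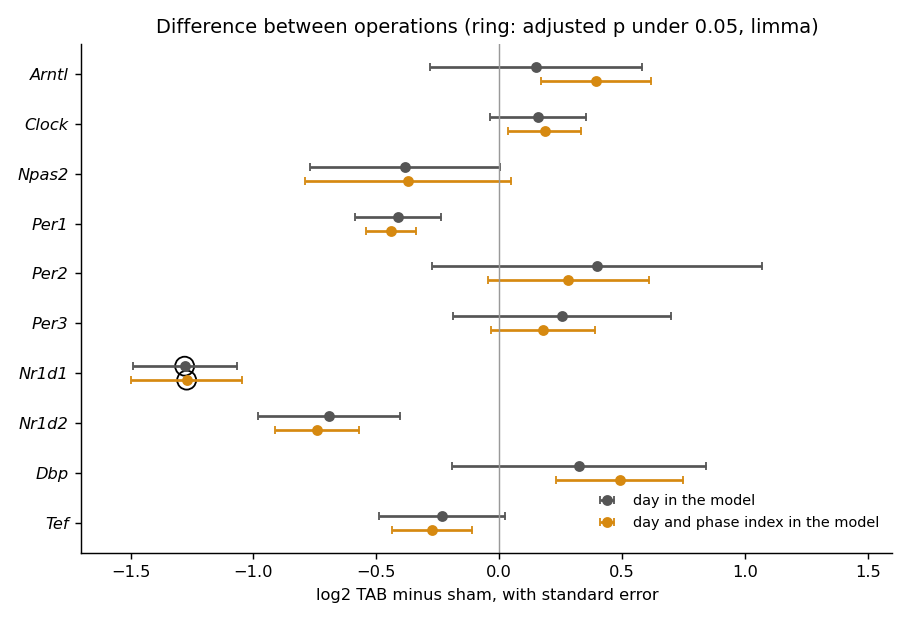
Log2 TAB minus sham with its standard error (horizontal axis) for each of the 10 genes, from the fit with day alone (grey) and the fit with day and phase index (orange), with a ring where the adjusted p from limma is under 0.05. Nr1d1 is ringed in both fits, and the bars of Per2, Per3, Dbp and Arntl are shorter with the index in the model.

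None of the remaining members was called by limma in either fit, and by the probes used none reached an unadjusted p under 0.05. Arntl stood at 0.15 ± 0.43 (SE) and Dbp at 0.33 ± 0.52 (SE) without the phase index, and at 0.39 ± 0.23 and 0.49 ± 0.26 when each was fitted on the other (adjusted p = 0.272 and 0.239 from limma). Per2 stood at 0.40 ± 0.67 and with the index at 0.28 ± 0.33 (adjusted p = 0.582 from limma). Per3 stood at 0.26 ± 0.44 and with the index at 0.18 ± 0.21 (adjusted p = 0.59 from limma), and its brighter probe gave -0.32 in both fits (adjusted p = 0.0758 and 0.106 from limma). Tef stood at -0.23 ± 0.26 and with the index at -0.27 ± 0.16 (adjusted p = 0.291 from limma). The positive means of Per2, Per3 and Dbp turned to -0.36, -0.33 and -0.28 without day 14. A p that misses the threshold does not show that these genes were alike in TAB and sham hearts.

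Day 3 and day 28 were the days on which both samples had the most similar index. The similarity rests on Arntl on day 3, when Dbp was not detected, and on Dbp on day 28, when Arntl was not detected. On day 3, the log2 ratio of TAB over sham was -2.06 for Nr1d1, at 7.35 against 9.41, with detection p-values of 0.951 and 0.00135, which allows only at least 1.73-fold. Nr1d2 read 5.65 against 6.88, not detected in either sample (detection p-values of 1 and 0.690), so no fold is given. As measured, the log2 ratios of the other 8 members on that day lay between -0.39 (Per3) and 0.50 (Per2), both ends from probes not detected in either sample. The brighter Per3 probe, detected in both, gave -0.54. On day 28, it was -0.59 for Nr1d1, at 8.76 against 9.35, and -0.44 for Nr1d2. Npas2 was detected in neither sample, and the other members lay between -0.55 (Per2) and 0.37 (Clock). These are single pairs of samples, with no replicate check.

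**Figure D4:**
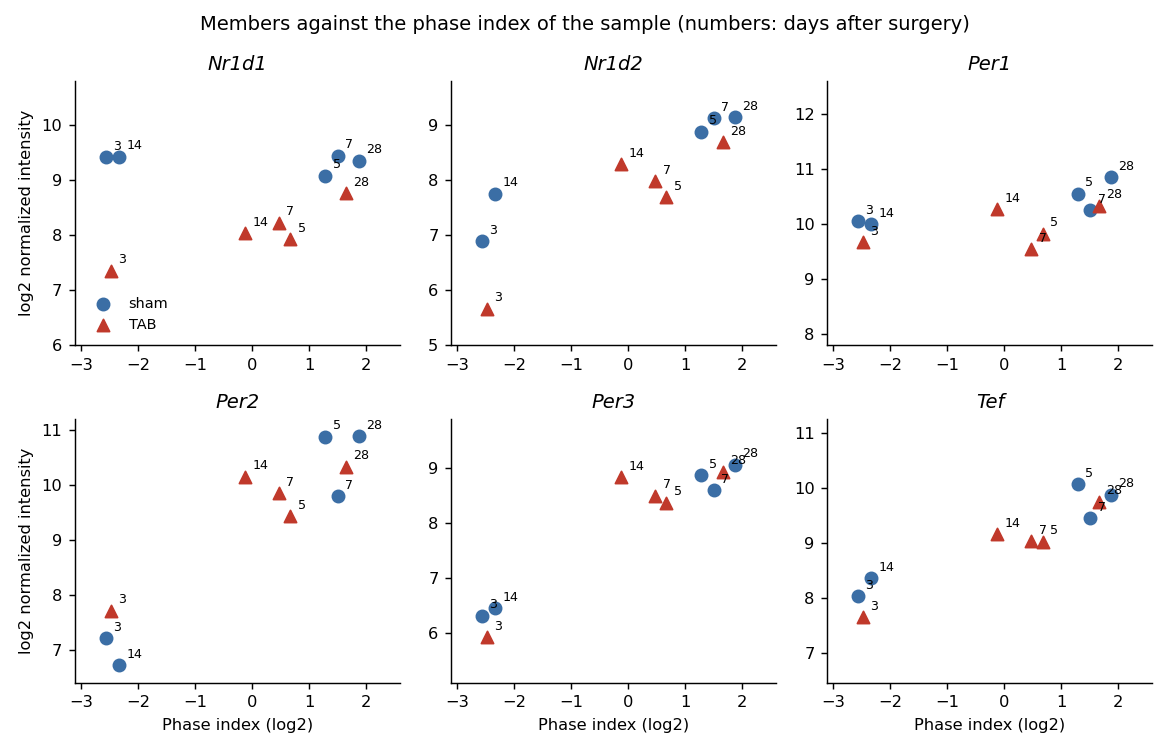
Log2 normalized intensity (vertical axes) of Nr1d1, Nr1d2, Per1, Per2, Per3 and Tef against the phase index of the sample (horizontal axes, log2 units, Arntl-high samples to the left), with circles for sham and triangles for TAB and the day beside each point. For Nr1d1 the sham samples lie between 9.08 and 9.44 at every index. All TAB samples lie lower, from 7.35 at their lowest index to 8.76 at their highest. Per2 and the steeper Per3 probe, the one drawn, follow the index in both operations.

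By the calls of single days (a log2 ratio of TAB over sham past 2 SDs of all genes on that day), 6 gene and day pairs were called. On day 3, Nr1d1 was called lower, 1 of 10 members where 2.1% of all genes were. On days 5 and 7 none was, although the log2 ratio of Nr1d1 was -1.15 and -1.22. On day 14, Per2 (3.43), Dbp (2.74) and Per3 (2.39) were called higher, 3 of 10 where 3.39% of all genes were, and Arntl (-1.68) lower, 1 of 10 where 2.27% were. On day 28, Npas2 was called lower, 1 of 10 where 2.47% of all genes were. These calls rest in part on samples where the gene was not detected. On day 14 Dbp was detected in both samples, while for the dimmer samples of Per2, Per3 and Arntl the detection p-values were 0.719, 0.787 and 0.0645, so that TAB was at least 3.29-fold higher for Per2 and at least 3.04-fold lower for Arntl. For Per3 the probe used gave at least 1.32-fold higher, but the brighter probe, detected in both samples, read lower in TAB, at 10.01 against 10.30, so no bound is given for the gene. For Npas2 on day 28 neither sample was detected. The 4 calls of day 14 were those of Arntl and Dbp, which make up the index, and of the probes used for Per2 and Per3, on the day when the phase index of both samples lay farthest apart. As measured, the Nr1d1 log2 ratio of that day was -1.39, of opposite sign to those of Tef (0.79) and Dbp. The dimmer sample was not detected for Nr1d1 or for Tef. Nr1d2 was detected in neither sample of that day, so the sign of its ratio (0.54) is uncertain.

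The annotated span of Nr1d1 (chr11:98767932-98775377, GRCm38.p6) shares 1075 bases with that of Thra, which encodes thyroid hormone receptor alpha, and the place of the probe is not given in the sources used here. The single Thra probe read 5.45, 4.32, 4.64, 4.87 and 4.25 in sham and 4.11, 3.67, 3.40, 3.60 and 3.46 in TAB samples, and was found on 3 sham arrays and on 0 TAB arrays, so its level lay near background. Its log2 difference was -1.06 ± 0.15 (SE, adjusted p = 0.016 from limma), a call that was lost when day 3, 5 or 7 was left out. Whether the probes share signal was not tested. Dbp likewise shares 741 bases with Sphk2, a sphingosine kinase gene, which did not follow it: Sphk2 read from 7.36 to 7.96 in sham and from 7.77 to 8.03 in TAB samples.

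Cell type markers moved with the operation too. Of 6 leukocyte markers, 5 were called higher and 1, Cd3e, lower in TAB by limma, where 9.19% of all genes were called higher and 7.87% lower (median log2 difference 1.26), and their summed intensity ran from 2213 to 5198 in TAB and from 1489 to 1905 in sham samples. Of 5 fibroblast markers, 3 were called higher, with Postn at 3.37, and the summed intensity ran from 29001 to 45007 against 19705 to 23028. Of 9 cardiomyocyte markers, 2 were called lower, Mb and Atp2a2, with a median of -0.36 and sums of 215142 to 227436 against 220475 to 252827. The Mb probe stood at a mean of 8.60 in sham and 7.92 in TAB samples, and that of Atp2a2 at 7.69 and 7.20. In all TAB samples both lay below the lowest detected level of their array (8.11 to 8.62), so these 2 calls rest on readings near background. None of the 5 endothelial markers was called by limma, and 1 had an unadjusted p under 0.05, where 35.7% of all genes did. With day 3, 5, 7 or 14 left out, at most 2 leukocyte and 2 fibroblast markers were called. The part of these shifts in the lower Nr1d1 level was not tested, and in a whole ventricle fewer cells of a type and less RNA per cell cannot be told apart.

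Of 19 further clock genes 17 were measured, and 2 were called higher and 2 lower in TAB by limma, where 9.19% of all genes were called higher and 7.87% lower, with a median log2 difference of -0.12 beside -0.03 over all genes. Bhlhe40, a repressor that competes for E-boxes, was higher by 0.79 ± 0.20 (SE, adjusted p = 0.0482 from limma), with TAB samples between 10.21 and 10.81 and sham samples between 9.20 and 10.50. Timeless was higher by 0.58 ± 0.12 (SE, adjusted p = 0.0306 from limma). Lower were Usp2, a deubiquitinase of clock proteins, at -0.92 ± 0.21 (SE, adjusted p = 0.0363 from limma), and Rorb (-0.95, adjusted p = 0.042 from limma), found on 0 TAB arrays and 1 sham array and so near background. With the phase index in the fit, Timeless (adjusted p = 0.0481 from limma) and Usp2 (adjusted p = 0.0397 from limma) still passed. The cryptochromes, co-repressors with the period proteins, were not called: Cry1 stood at -0.33 ± 0.12 (SE) and Cry2 at -0.12 ± 0.15 (SE). With day 3, 5 or 7 left out no gene of this list was called in either fit, without day 14 only Usp2 was, in the fit with day alone, and without day 28 there were 3 and 2 calls, all lower. Hlf, the third PAR bZIP gene, followed the phase, from 6.57 in the day 3 TAB sample to 9.36 in the day 28 sham sample, and stood at -0.54 ± 0.31 (SE, adjusted p = 0.268 from limma).

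Of 9 heart genes known to follow the clock, 3 were called lower and 0 higher by limma, where 7.87% of all genes were called lower, with a median log2 difference of -0.73 beside -0.03 over all genes. With the phase index 4 were called lower and 0 higher, where 5.65% of all genes were called lower. The list was chosen with earlier results of these data known. Kcnip2, a subunit of the channel for the transient outward potassium current, was lower, at -1.29 ± 0.23 (SE, adjusted p = 0.0242 from limma), at 9.26 to 9.84 in sham and 7.87 to 8.80 in TAB samples. Nampt, the rate-limiting enzyme of NAD salvage, was lower, at -1.26 ± 0.23 (SE, adjusted p = 0.0249 from limma), and Dgat2, which makes triglyceride, at -0.68 ± 0.15 (SE, adjusted p = 0.0358 from limma). Klf15, the transcription factor upstream of Kcnip2 in the clock's control of repolarization, passed only with the phase index (-1.28 ± 0.25, adjusted p = 0.0408 from limma), and so did Tcap, a Z-disc protein (-0.78 ± 0.18, adjusted p = 0.0496 from limma). Without the index, Klf15 stood at -1.23 ± 0.33 (SE, adjusted p = 0.0525 from limma). Dgat2 passed only without it. At an unadjusted p under 0.05, 5 of the 9 were lower and 1 higher without the index, where 35.7% of all genes were under it in either direction. With day 3, 5 or 7 left out none of the 9 was called in either fit, without day 14 Nampt and Tcap were in the fit with day alone, and without day 28 the counts were 3 and 4, all lower.

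**Figure D5:**
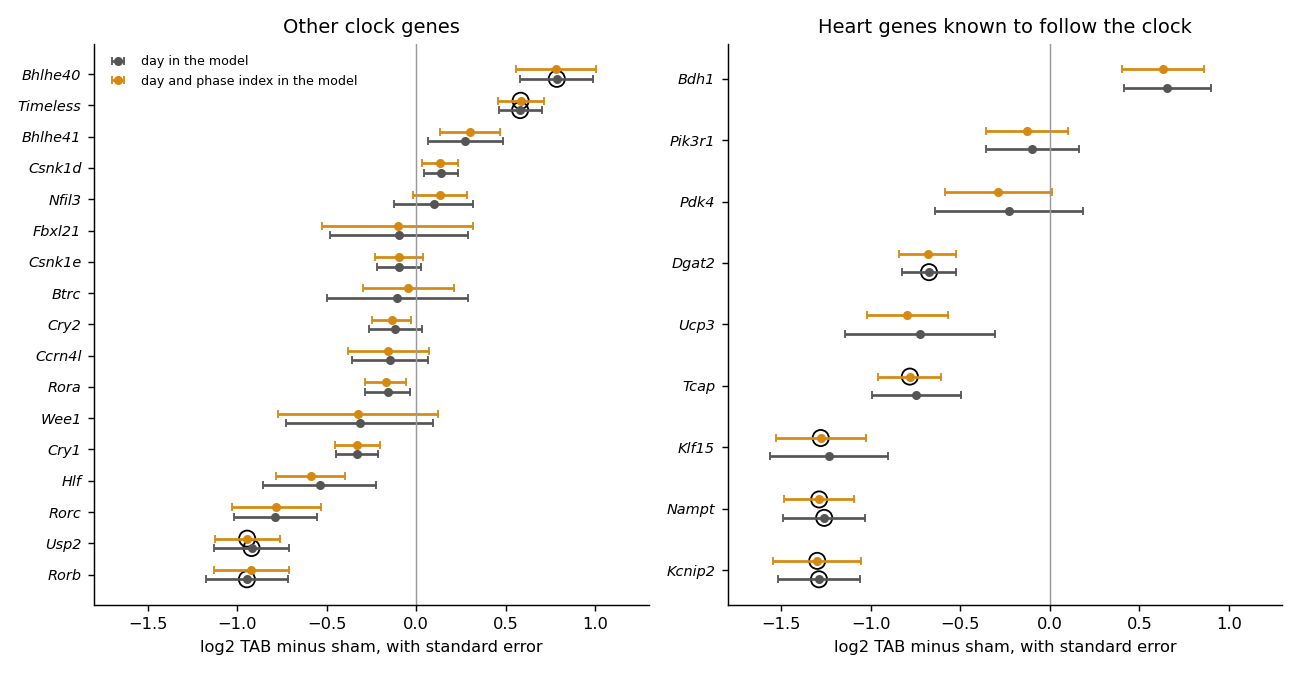
Log2 TAB minus sham with its standard error (horizontal axes) for 17 other clock genes (left) and 9 heart genes known to follow the clock (right), from the fit with day alone (grey) and with day and phase index (orange), with a ring where the adjusted p from limma is under 0.05. Most values hardly move when the index is added, and Kcnip2, Nampt, Usp2 and Timeless are ringed in both fits.

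Genes induced by glucocorticoids or by acute stimuli, which can also move the period genes, were mostly not called. None of 7 glucocorticoid-induced genes passed limma in either fit, with medians of -0.07 and -0.15 and 1 gene at an unadjusted p under 0.05 in each. Over all genes, 9.19% were called higher and 7.87% lower without the phase index, and 7.38% and 5.65% with it. At an unadjusted p under 0.05 the shares were 35.7% and 35.6%. In lists this short, the absence of calls lies near the called shares. None of 8 immediate-early genes passed without the phase index, and 2 had an unadjusted p under 0.05. With it, Egr2 was higher (3.22, adjusted p = 0.0383 from limma), found on 4 TAB arrays and 1 sham array, and not called once day 3, 5, 7 or 14 was left out (without day 28 the filter on low values removed it). Egr1 read 13.36 in the day 14 sham sample and between 9.34 and 11.30 in the other 9. That sample was also the highest for Fos (10.18), Junb (8.28), Nr4a1 (11.23) and Ier2 (9.29), but not for Fosb, Egr2 and Atf3. Whether this bears on the clock gene ratios of day 14 was not tested.

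The genes nearest in course to the phase pair were drawn from 10526 genes found on all arrays, the members left out, by the same root mean square difference over the 10 samples. Nearest to Dbp were Hlf (1.12), Rhobtb1 (1.13), Coq10b (1.15), Adh1 (1.18) and Acer2 (1.19), against a median of 1.73 over all candidates. Nearest to Arntl were Spon2 (0.47), Adam19 (1.04), Tmem171 (1.16), Egr1 (1.21) and Nfil3 (1.24), against a median of 1.79. Arntl itself was not detected on 7 of 10 arrays, so these distances rest in large part on readings near background. Spon2, a secreted matrix protein gene, was closest by far, at 9.88, 5.60, 7.28, 10.20 and 6.51 in sham and 11.19, 7.86, 8.15, 9.09 and 6.49 in TAB samples. Nfil3 encodes a repressor at D-boxes. No member of either set of 5 was called between TAB and sham by limma in either fit. Without the phase index 9.19% of all genes were called higher and 7.87% lower. The 2 sets were chosen for courses close to Dbp and Arntl, which were not called, so no conclusion is drawn from this.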

How the data were processed

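Cy5-labelled amplified RNA was hybridised by the authors to a 1-colour mouse oligonucleotide array, scanned and quantified with GenePix. The deposited table holds raw intensity per probe and array, a detection p-value, and a flag score per spot, read here as found or not found. Neither the formula of the p-value nor the meaning of the flag is given. The study's methods average repeat measurements of a sample after median scaling. Whether the deposited raw values already hold such averages, and how background was subtracted, is not given in the sources used here. Following the study's methods, arrays were scaled to a common median and probes below 1 on any array removed (19976 of 26423 kept). The arrays were then brought to 1 distribution, the rank medians over all 10 (quantile normalization). The study ran this step by condition, which is the alternative within each operation. The probe with the largest summed absolute log2 ratio stood for a gene, which favours large ratios. Of all probes, 3633 carried no symbol.

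Differences were fitted over all 16113 genes with limma 3.58.1 (R 4.3.3), day as a block, with and without the phase index, Benjamini-Hochberg at 0.05. No gene entered its own index. The scripts were tested on simulated data. Same-day samples were blocked because the study forms its ratios within a day. Members, lists and rules were chosen with earlier results of these data known, and named genes were the members, those list genes past a test or chosen as reference points, and the 5 genes nearest to Dbp and to Arntl. From the list of other clock genes, 1 item is not reported here. Thra and Sphk2 were named for their overlap. Cry1, Cry2, Hlf, the immediate-early genes named for the day 14 sham sample and the marker genes named beside their counts were picked after their values were seen. The number of arrays limits the precision. Alternatives covered normalization, a pseudocount of 50, filters, choice of probe, days left out, the block, the variance model and the index. Figures were drawn with matplotlib.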

Additional observations from a re-analysis of the deposited data

Results flagged for a closer look

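In 4 of 22 sets of 5 samples (10 genes and the phase index, each in TAB and in sham) 1 sample stood far from the other 4, by a limit that chance passes in about 1 in 20 independent sets. These sets share their samples and the index is built from 2 of the genes, so they are not independent. The day 3 TAB sample was the one in 3 of them. It had the lowest Dbp of the TAB samples (8.08, the next 11.33), the lowest Per3 by its steeper probe (5.92, the next 8.37) and the highest Clock (8.78, the next 8.33). It was also the only TAB sample at the Arntl-high end of the phase index, and its array was the dimmest. The other was the day 5 sham sample, with the lowest Nr1d1 of the sham samples (9.08, the next 9.35), still above every TAB sample.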

How the results depend on the processing

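Nr1d1 was lower in TAB in all 14 alternatives of the fit with day alone (-1.45 to -1.08, adjusted p = 0.00198 to 0.0822 from limma) and passed in 10, and in all 15 of the fit with phase (adjusted p = 0.00367 to 0.333), passing in 10. Beside these, raised to the detection limit in TAB, it stood at -0.87 in both fits (adjusted p = 0.0153 and 0.031 from limma). Members called numbered 1 in both fits. With phase they were 3 (Per1, Nr1d1 and Nr1d2) with 50 added, with only probes found on all arrays, with the brightest probe, with the mean of probes, and with limma's trend and robust options, 2 with the index of all members but Nr1d1 and the gene fitted, and 0 with probes below 1 set to 1. With days left out they ran from 0 to 1 without and from 0 to 2 with phase, and without day 3, 5, 7 or 14 the fit with phase called 0 members and 0 of all genes, with 2 or 3 members at an unadjusted p under 0.05. Day calls were 6, 3 with probes set to 1 and 17 at a log2 ratio of at least 1. They were 9 with 50 added (with Per2 on day 5, Nr1d1 on days 7 and 14 and Nr1d2 on day 7, without Npas2), 6 with found probes (Nr1d1 on day 14 in place of Npas2), 5 with the brightest probe (without Per3) and 4 with the mean of probes (without Per3 and Npas2). The phase index difference of 0.09 turned to -0.032 (all members but Nr1d1) and -0.16 (all members), and ran from -0.44 to 0.37 with days left out. Without the block on day, that is without the pairing by day, Nr1d1 passed in both fits (adjusted p = 0.00515 and 0.00624) and no other member's call changed. Deviations of same-day samples correlated at 0.113, -0.0165, 0.0065, 0.00292 and 0.014, and 2 of 10 samples correlated best with their own day. The counts of list genes with days left out and the bounds from detection were added after seeing the data.

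Signs that turned, all uncalled: without phase, Arntl to -0.00998 (50 added) and Per3 to -0.32 (brightest probe) and -0.0328 (mean of probes), and with phase Per3 to -0.32 and -0.0704. With days left out and without phase, Arntl ran from -0.12 to 0.61, Per2 from -0.36 to 0.86, Per3 from -0.33 to 0.44 and Dbp from -0.28 to 0.65, and with phase Per2 from -0.14 to 0.55, Per3 from -0.44 to 0.34 and Dbp from -0.062 to 0.64. The lowest value came without day 14, except for Arntl without phase (without day 5). Genes called over the table were 2749 without and 2100 with phase. They were 4465 and 4414 with 50 added, 675 and 12 with probes set to 1, 3984 and 4044 with found probes, 4194 and 4253 with trend and robust, 3598 and 3569 without the block, and 22 to 2773 and 0 to 2591 with days left out. With median scaling alone 67.6% and with quantile normalization within each operation 66.3% of calls were higher in TAB, against 53.9%. Low signal limits the probes used for all members but Per1, each of which was not detected on at least 2 arrays (the brighter Per3 probe was detected on all), most of all Npas2 (all arrays), Arntl (7 of 10), Nr1d2 (6 of 10) and Nr1d1 in TAB (4 of 5).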
